A study of Rattus norvegicus with 6 samples.

Results

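The genes described here make, break down and sense prostaglandins: the phospholipases Pla2g2a and Pla2g4a, the cyclooxygenases Ptgs1 and Ptgs2, the synthases Ptges, Ptgis and Ptgds, the breakdown enzyme Hpgd and the prostaglandin E2 receptors Ptger2 and Ptger4. A probe belonged to the set when the gene name in the array file equalled 1 of these 10 symbols. All 10 genes were found, with 14 of the 45598 probes on the array, and the rule uses no measured value. The list of symbols itself was chosen with earlier results of these data known. The cells were stromal cells from the marrow of rat tibias, kept in culture for 7 days on titanium with a tantalum-modified surface (Ta, 3 arrays) or on titanium with a simple surface (Ti, 3 arrays). Total RNA was labelled with Cy3, amplified and hybridised to one-colour Agilent arrays, and the design text describes the cultures as independent experiments. No other agent or genetic change is given for either group, and the strain, sex and age of the animals are not given in the sources used here. The comparison asks which of these transcripts differed with the surface.

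Prostaglandin synthesis starts when a phospholipase A2 releases arachidonic acid from membrane lipids. Ptgs1, the largely constitutive cyclooxygenase, or Ptgs2, the inducible one, then converts it to prostaglandin H2, from which terminal synthases make prostaglandin E2 (Ptges), prostacyclin (Ptgis) or prostaglandin D2 (Ptgds). Hpgd inactivates prostaglandin E2 by oxidation, and Ptger2 and Ptger4 are receptors that raise cyclic AMP when they bind it. In bone marrow stromal cells and osteoblasts, prostaglandin E2 is known as a local signal that affects bone formation and, through the stromal cells, the formation of osteoclasts.

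The probes that measured the 2 cyclooxygenases and the 2 phospholipases within their coding sequence are shown first, to show the sequence by which the array tells related enzymes apart. The cyclooxygenase probes shown are the dimmer coding ones, while the tests and ratios below use the brightest probe of each gene, which for Ptgs1 and Ptgs2 is another probe. Each is the 60-base probe of the array file, and the capitals in the Ptgs2 probe mark the stop codon.
Ptgs2 probe, rn4 chr13:64432919-64432978, plus strand: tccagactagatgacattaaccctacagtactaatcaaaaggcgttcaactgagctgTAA
Ptgs1 probe, rn4 chr3:15350683-15350742, plus strand: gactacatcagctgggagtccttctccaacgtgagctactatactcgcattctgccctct
Pla2g2a probe, rn4 chr5:157657033-157657092, plus strand: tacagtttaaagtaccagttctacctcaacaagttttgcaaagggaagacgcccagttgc
Pla2g4a probe, rn4 chr13:64146152-64146211, minus strand: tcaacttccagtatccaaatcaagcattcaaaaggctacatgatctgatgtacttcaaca
The coordinates are those of the array file, whose header names the rat build rn4. The longest run of bases that a Ptgs1 probe shared with a Ptgs2 probe was 7.

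The 250 bases upstream of the annotated start are shown for the 3 members with the highest differences, Ptges, Pla2g2a and Ptgs2, and for Ptgs1, the cyclooxygenase that did not pass the test. The sequences come from RefSeq (build GRCr8), where 9 of the 10 members had an entry. Capitals mark matches to TATAAA (the TATA box), TGACG (the cyclic AMP response element core), TGANTCA (the AP-1 site), TTGCNNAA (the C/EBP site), CACGTG (an E-box), GGGCGG (the GC box) and the NF-kB consensus, each searched on both strands.
Ptgs2 upstream, GRCr8 chr13:64713813-64714062, plus strand: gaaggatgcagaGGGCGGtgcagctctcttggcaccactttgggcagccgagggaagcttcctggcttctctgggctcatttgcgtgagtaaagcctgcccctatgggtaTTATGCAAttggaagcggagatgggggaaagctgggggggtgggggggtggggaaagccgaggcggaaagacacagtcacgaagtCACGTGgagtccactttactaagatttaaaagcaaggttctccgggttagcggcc
Ptgs1 upstream, GRCr8 chr3:39981169-39981418, plus strand: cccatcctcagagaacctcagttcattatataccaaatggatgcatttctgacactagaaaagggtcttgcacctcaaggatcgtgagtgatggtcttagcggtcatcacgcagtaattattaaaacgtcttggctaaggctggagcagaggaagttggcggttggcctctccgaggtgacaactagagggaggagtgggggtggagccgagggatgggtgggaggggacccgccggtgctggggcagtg
Ptges upstream, GRCr8 chr3:34586988-34587237, minus strand: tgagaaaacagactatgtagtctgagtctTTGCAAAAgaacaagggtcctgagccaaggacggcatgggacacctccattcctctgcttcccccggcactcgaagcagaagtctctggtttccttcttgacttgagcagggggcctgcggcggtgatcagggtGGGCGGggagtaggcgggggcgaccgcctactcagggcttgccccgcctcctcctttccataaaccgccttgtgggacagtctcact
Pla2g2a upstream, GRCr8 chr5:156359475-156359724, plus strand: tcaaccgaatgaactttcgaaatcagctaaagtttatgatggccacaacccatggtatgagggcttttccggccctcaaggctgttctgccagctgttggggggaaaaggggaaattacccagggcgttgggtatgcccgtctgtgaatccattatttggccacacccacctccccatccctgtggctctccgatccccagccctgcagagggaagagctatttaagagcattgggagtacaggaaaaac
The Ptgs2 window held a TTGCNNAA match at -140 to -133 on the minus strand, a CACGTG match at -55 to -50 and a GGGCGG match at -238 to -233. The Ptges window held TTGCNNAA at -221 to -214 and GGGCGG at -87 to -82, and no match lay in the Ptgs1 or Pla2g2a window. None of these matches overlapped another. Over the 33469 windows of this length, TTGCNNAA occurred in 9.22%, CACGTG in 5.59% and GGGCGG in 30.5%. The shares of the motifs with no match in these 4 windows were 12.9% for TATAAA, 18.2% for TGACG, 6.34% for TGANTCA and 6.33% for the NF-kB consensus. These matches describe letters only.

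Ptgs2 transcripts were 4.89-fold higher on the Ta surface and were the only ones among the members to pass the test. Ptges and Pla2g2a had mean signals 6.39-fold and 4.97-fold higher on Ta, with adjusted p-values just above the threshold. The signals of Ptgs1, Ptger2 and Ptger4 differed by at most 1.19-fold, and Hpgd was 1.67-fold lower on Ta without passing the test. Ptgis and Ptgds were on no array well above background. The threshold was an adjusted p of 0.05 from limma with Benjamini-Hochberg adjustment over all 19570 genes tested. Of the 10 members, 8 were tested, and each of these 8 was well above background on all 6 arrays. The 1 member past the test compares with 4.15% of all genes tested, or 2.67% for higher on Ta and 1.48% for lower. At an unadjusted p under 0.05, 4 members were higher and 2 lower, where 30.0% of all genes reached that level. Every Ta array lay above every Ti array for Ptgs2, Ptges, Pla2g2a and Pla2g4a, against 19.5% of all genes. Every Ta array lay below every Ti array for Hpgd and Ptger4, against 16.4% of all genes. A difference of 2 or more toward Ta on the log2 scale, seen in 0.393% of all genes, was found for Ptges, Pla2g2a and Ptgs2. Since the members were chosen with earlier results known, these shares are a description and not a test of the set. The median difference of the 8 tested members was 0.42 on the log2 scale, and that of all genes was 0.03.

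**Figure D1:**
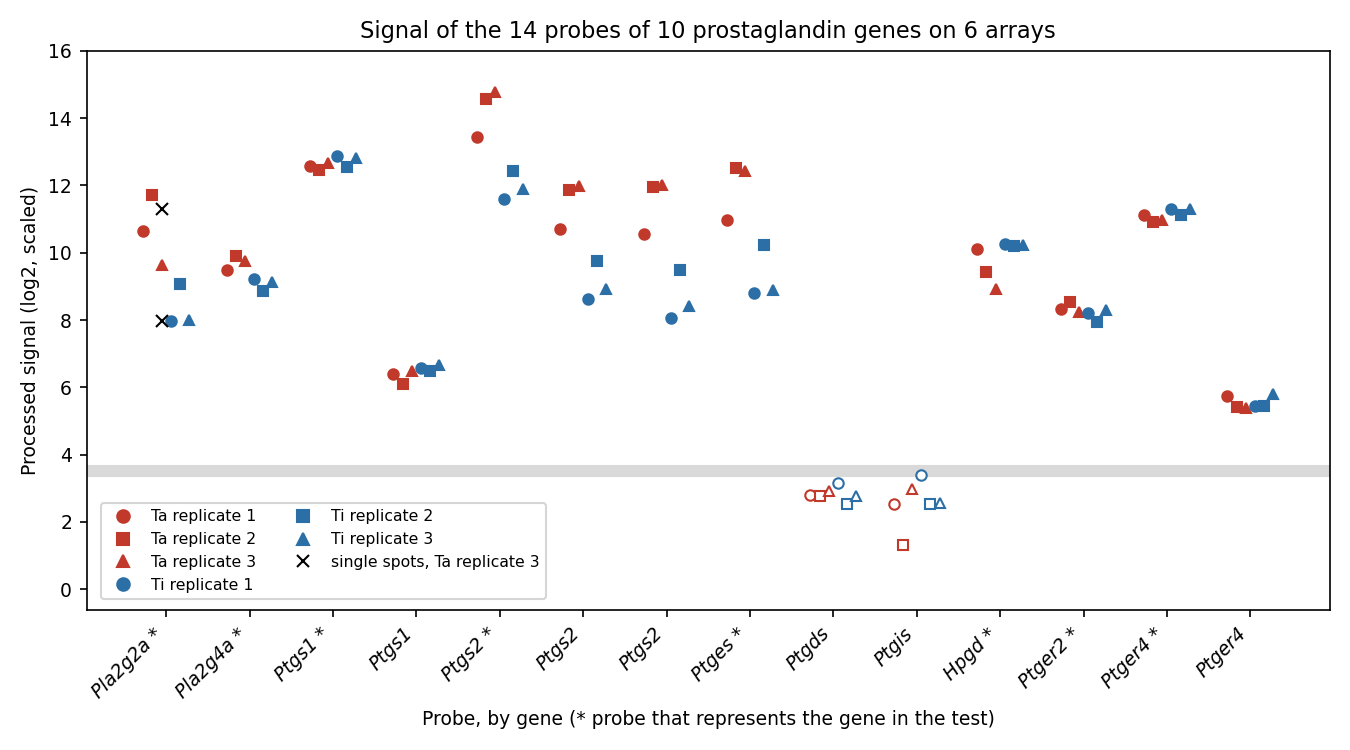
Scaled log2 processed signal (y axis) of each of the 14 probes (x axis, grouped by gene) on the 3 Ta arrays (red) and 3 Ti arrays (blue), with 1 symbol shape per replicate. Open symbols are probes that were on no array well above background, the grey band spans the lowest signal well above background on each array, and black crosses are the 2 single spots behind the Pla2g2a value on Ta replicate 3. The 3 Ptgs2 probes and the Ptges probe have all red symbols above all blue ones, and the Ptgs1 symbols lie close together.

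All signals below are log2 processed signals after each array was scaled to its 75th percentile, and differences are Ta minus Ti on that scale. A probe's brightness also depends on its sequence, so signals are compared between arrays and not between genes. Between 62.7% and 65.9% of the spots on an array were well above background, no spot (0) was saturated, and the number of arrays limits the precision. The arrays shared 1 slide and 1 scan, but its rows were uneven: row 1 held the Ta arrays with Ti replicate 1, and row 2 the other Ti arrays.

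Pla2g2a encodes a secreted phospholipase A2 that is raised in inflammation. Its probe, which has 2 spots, gave a mean signal of 10.64, 11.72 and 9.63 on Ta replicates 1 to 3 and of 7.98, 9.08 and 8.0 on Ti replicates 1 to 3. The groups did not overlap, and the Ta arrays spread more widely (SD 1.04, n = 3) than the Ti arrays (SD 0.63, n = 3). The difference was 2.31 ± 0.57 (SE, 95% interval 0.93 to 3.70), with an adjusted p of 0.0682 from limma, and 57 genes had a larger difference toward Ta. On Ta replicate 3 the 2 spots read 7.97 and 11.29, a gap of 3.32, while on the other 5 arrays they differed by 0.03 to 0.13. The dim spot had 33 pixels in use and 9 rejected for high values, its partner had 43 in use and 0 rejected, and neither carried an outlier flag. Among 1794 probes on that array with several spots and a brightest spot above a signal of 512, 2 had spots more than 1 apart and 1 had spots more than 3 apart, and on the other 5 arrays none (0) did. With the second spot alone on every array the difference was 2.90 ± 0.41 with an adjusted p of 0.0395, and with the first spot alone it was 1.73 ± 0.93 with an adjusted p of 0.264. These single-spot values were computed after the disagreement was seen.

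Pla2g4a encodes the cytosolic phospholipase A2 that supplies arachidonic acid to the cyclooxygenases. Its signal was 9.50, 9.90 and 9.74 on the Ta arrays and 9.23, 8.87 and 9.14 on the Ti arrays. The groups did not overlap, and replicate 1 was the lowest Ta array and the highest Ti array. The difference was 0.63 ± 0.15 (95% interval 0.28 to 0.98), a 1.55-fold ratio with a limma adjusted p of 0.063. In the GRCr8 gene table Pla2g4a and Ptgs2 are neighbours on chromosome 13, with 2 genes between them and no protein-coding gene (0) among these. Set against Pla2g4a within each array, the log2 ratio of Pla2g2a shifted by 1.68 toward Ta (exact permutation test, p = 0.2). With 3 arrays against 3 such a test cannot give a p under 0.1. The overlap lay between Ta replicate 3 (-0.11) and Ti replicate 2 (0.21), and the Ta replicate 3 value averages the 2 discordant Pla2g2a spots.

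Ptgs2, the inducible cyclooxygenase, was measured with 3 probes, whose starts lay 989 and 1294 bases apart along chromosome 13. The brightest, at rn4 chr13:64435202-64435261, read 13.44, 14.58 and 14.76 on the Ta arrays and 11.59, 12.42 and 11.90 on the Ti arrays. Ta replicate 1 was the lowest of its group and Ti replicate 2 the highest of its group, and a gap remained between them. On the linear scale these signals were 11127, 24564 and 27654 on Ta and 3077, 5489 and 3820 on Ti. The Ta mean was 14.26 ± 0.71 (SD, n = 3) and the Ti mean 11.97 ± 0.42 (SD, n = 3). Ptgs2 rose on Ta by 2.29 ± 0.39 (SE, 95% interval 1.34 to 3.24), with a limma adjusted p of 0.0449, and 61 genes had a larger difference toward Ta. In these bulk cultures, more cells of a type and more RNA per cell cannot be told apart for a rise. The same holds for fewer cells and less RNA per cell where a signal is lower.

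The other Ptgs2 probes showed the same order of arrays. The middle probe read 10.71, 11.85 and 11.99 on Ta and 8.61, 9.76 and 8.92 on Ti. The coding probe printed above gave, on the linear scale, 1510, 3978 and 4100 on Ta and 269, 713 and 341 on Ti. Their differences were 2.42 ± 0.43 and 2.85 ± 0.51, with adjusted p-values of 0.045 and 0.0451 in a limma fit over all probes. The 2 spots of the brightest probe agreed within 0.07 on every array. Probes of 1 gene measured the same RNA extracts and are not replicates.

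The Ptgs2 call was close to the threshold. Adjusted p rose to 0.164 when Ta replicate 2 was left out, to 0.131 without Ta replicate 3, to 0.135 without Ti replicate 1, to 0.165 without Ti replicate 3, to 0.121 with all dim probes kept and to 0.0681 with the replicate number as a block. These 4 omissions left no gene (0) of the whole table past the test, with 3811 to 4465 genes at an unadjusted p under 0.05. Every other call named here was thus lost with them too. With the replicate number as a block, the SE of Ptgs2 fell from 0.39 to 0.22. Its unadjusted limma p fell from 0.000967 to 0.000297, although its adjusted p rose. Within slide row 1, where Ti replicate 1 alone stood for Ti, the difference was 2.67 ± 0.56 with a limma adjusted p of 0.191.

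Ptgs1, the other cyclooxygenase, read 12.58, 12.45 and 12.67 on the Ta arrays and 12.86, 12.55 and 12.81 on the Ti arrays at its brighter probe. The groups overlapped, with Ti replicate 2 below the highest Ta array. The difference was -0.18 ± 0.12 (95% interval -0.46 to 0.11), with a limma adjusted p of 0.356. Its coding probe read 6.40, 6.11 and 6.48 on Ta and 6.57, 6.50 and 6.67 on Ti, with all Ta arrays below the Ti arrays, and gave -0.25 ± 0.12. The log2 ratio of Ptgs2 to Ptgs1 was 0.86, 2.14 and 2.08 on the Ta arrays and -1.27, -0.13 and -0.91 on the Ti arrays. The ratio thus shifted by 2.47 with no overlap between groups (exact permutation test, p = 0.1, the smallest this design can give). The gap between the groups in Ptgs2 was wider than the whole spread of Ptgs1. The separation of the ratio and its p were thus fixed by Ptgs2 and add nothing to its own values. The zero point of such a ratio depends on the probes and carries no meaning.

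Ptges, the inducible microsomal prostaglandin E synthase that works downstream of Ptgs2, had the largest difference of the members. Its probe, at rn4 chr3:9946741-9946800 on the minus strand, read 10.97, 12.53 and 12.44 on the Ta arrays and 8.81, 10.22 and 8.89 on the Ti arrays. As for Ptgs2, Ta replicate 1 was the lowest Ta array and Ti replicate 2 the highest Ti array, with a gap between them. The difference was 2.67 ± 0.55 (SE, 95% interval 1.33 to 4.01), with a limma adjusted p of 0.0522, and 43 genes had a larger difference toward Ta. Ptges passed the test when Ta replicate 1 (adjusted p 0.0165) or Ti replicate 2 (0.04) was left out.

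Ptgis, the prostacyclin synthase, and Ptgds, the lipocalin-type prostaglandin D synthase, were at the detection limit. Ptgis read 2.54, 1.33 and 2.97 on Ta and 3.41, 2.53 and 2.55 on Ti, and the 10 spots of Ptgds averaged 2.81, 2.77 and 2.91 on Ta and 3.15, 2.53 and 2.77 on Ti. The lowest signal well above background on an array lay between 3.37 and 3.68, so these signals have no order and were not tested. A difference between the surfaces was not detectable for these 2 synthases.

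**Figure D2:**
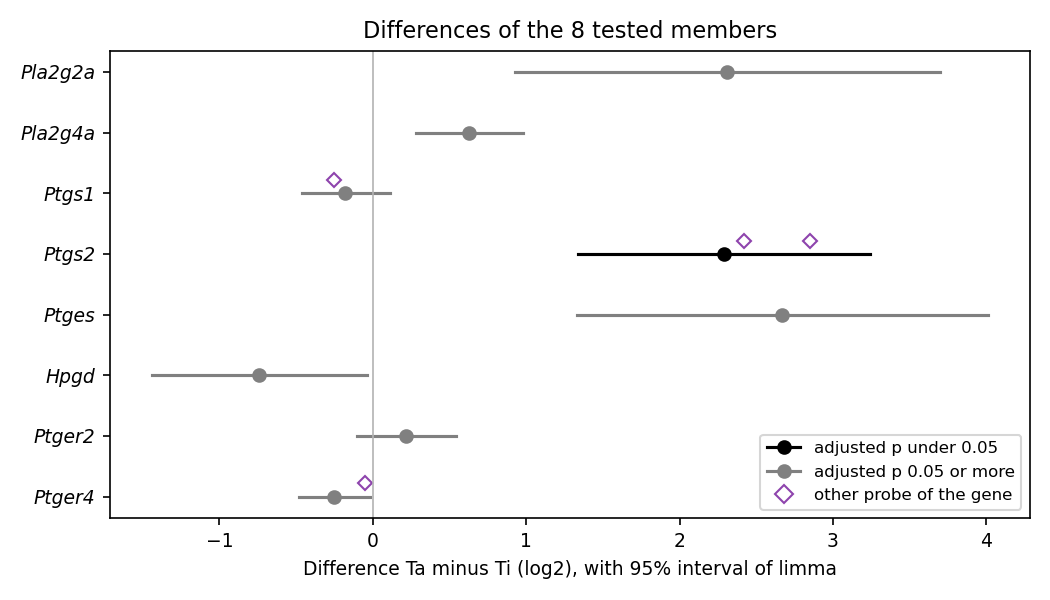
Difference Ta minus Ti on the log2 scale (x axis) with its 95% limma interval for each of the 8 tested members (y axis), and open diamonds for the other probes of the same gene. The Ptgs2 interval (1.34 to 3.24) is the only one drawn in black, for an adjusted p under 0.05, and the Ptges interval (1.33 to 4.01) is the one farthest to the right.

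Hpgd, the enzyme that starts prostaglandin breakdown, read 10.12, 9.43 and 8.92 on the Ta arrays and 10.27, 10.19 and 10.23 on the Ti arrays. The Ti arrays were tightly grouped (SD 0.04, n = 3), and the Ta arrays ranged from close to Ti on replicate 1 to well below it on replicate 3 (SD 0.60, n = 3). The difference was -0.74 ± 0.29 (95% interval -1.44 to -0.04), with a limma adjusted p of 0.15. Without Ta replicate 1 it was -1.05 with an adjusted p of 0.0198, and without Ta replicate 3 it was -0.45 with an adjusted p of 0.303. The log2 ratio of Ptges, which makes prostaglandin E2, to Hpgd, which inactivates it, was 0.85, 3.09 and 3.52 on Ta and -1.46, 0.03 and -1.35 on Ti. This ratio shifted by 3.41, and Ta replicate 1 lay nearest to the Ti arrays. Ptges lay higher and Hpgd lower on every Ta array, so their ratio had to separate the groups. The p of 0.1 (exact permutation test) was thus fixed in advance and adds nothing.

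Of the receptors, Ptger2 read 8.32, 8.55 and 8.23 on the Ta arrays and 8.20, 7.95 and 8.30 on the Ti arrays. The groups overlapped, and the difference was 0.22 ± 0.13 (95% interval -0.10 to 0.54) with a limma adjusted p of 0.307. Ptger4 read 11.11, 10.91 and 10.96 on Ta and 11.29, 11.13 and 11.31 on Ti at its brighter probe. All 3 Ta arrays lay below the Ti arrays, but the highest Ta and the lowest Ti array almost touched. The difference was -0.25 ± 0.10 (95% interval -0.48 to -0.02), with an adjusted p of 0.144. The dimmer Ptger4 probe, at 5.74, 5.41 and 5.39 on Ta and 5.46, 5.45 and 5.80 on Ti, overlapped and gave -0.05 ± 0.15, so the 2 probes did not show the same separation. The intervals of both receptors exclude a rise or fall of 1 on the log2 scale.

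**Figure D3:**
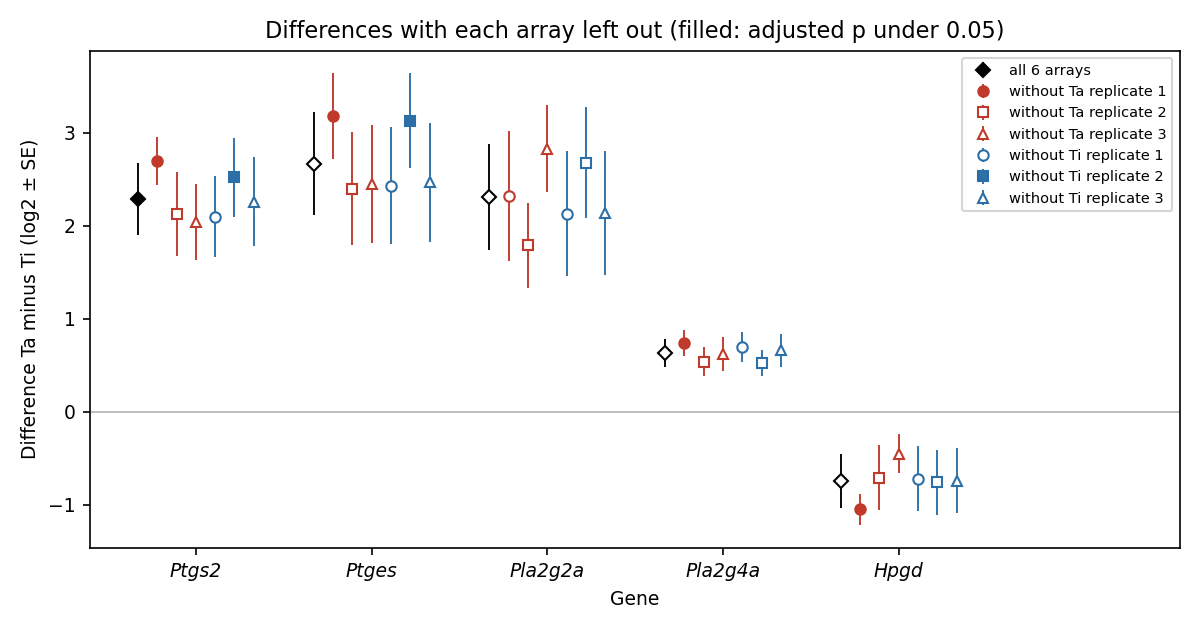
Difference Ta minus Ti on the log2 scale with its SE (y axis) for Ptgs2, Ptges, Pla2g2a, Pla2g4a and Hpgd (x axis), with all 6 arrays (black) and with each Ta (red) or Ti (blue) array left out. Filled symbols have an adjusted p under 0.05. The Ptgs2 difference stays between 2.04 and 2.70, and its symbol is filled with all arrays, without Ta replicate 1 and without Ti replicate 2.

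With placeholder gene names left out, the genes whose pattern over the 6 arrays lay nearest to that of Ptgs2 were Rassf6, Cyp7b1 and Selp. Nearness was the root mean square difference between log2 profiles, each centred on its own mean, and was 0.129 for Rassf6, 0.141 for Cyp7b1 and 0.148 for Selp. Cyp7b1, an oxysterol 7-alpha-hydroxylase, read 10.74, 11.96 and 12.02 on Ta and 8.86, 9.77 and 8.85 on Ti. Selp, which encodes P-selectin, an adhesion molecule of platelets and endothelium, read 9.22, 10.28 and 10.41 on Ta and 7.60, 8.38 and 7.91 on Ti. Their differences were 2.41 and 2.01, with limma adjusted p-values of 0.0452 and 0.0454, and Rassf6 had a difference of 2.29 with an adjusted p of 0.0526. Since these genes were picked for their likeness to Ptgs2 on the same arrays, such values follow from the choice and are no separate support. Among the members Ptges was nearest to Ptgs2, at 0.331, with 30 genes nearer. Pla2g2a followed at 0.782 with 438 genes nearer, and Pla2g4a at 0.956 with 1299 genes nearer. These counts of nearer genes include Ptgs2 itself and genes with placeholder names.

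The wider pathway held 59 other genes, of which 58 were on the array and 46 were tested. The test was passed by 5 of them, 4 higher and 1 lower on Ta, and missed by 41, with a median difference of 0.12. Over all genes tested, 2.67% were called higher and 1.48% lower, and 30.0% had an unadjusted p under 0.05, the shares against which the counts below are to be read. Among 10 tested genes for phospholipases A2 and for Anxa1, an annexin that restrains phospholipase A2, none (0) passed the limma test and 2 had an unadjusted p under 0.05. The largest differences among those measured on every array were 0.27 for Plaat3 (adjusted p 0.0957) and -0.27 for Pla2g15 (adjusted p 0.169). Pla2g2d, a secreted phospholipase of lymphoid tissue, was singled out after its values were seen because it ran opposite to Pla2g2a. It read 6.75, 4.47 and 3.63 on Ta and 8.08, 7.77 and 8.10 on Ti, and was well above background on 2 of the 3 Ta arrays. Its difference of -3.03 ± 0.76 had an adjusted p of 0.0693.

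Of 7 other tested genes listed as prostanoid synthases, 2 rose, and Akr1b3 of that list matched no probe. Whether each listed enzyme makes prostanoids in these cells was not tested. Akr1b8, an aldo-keto reductase, read 15.07, 15.31 and 15.55 on Ta and 14.53, 14.63 and 14.39 on Ti. It rose by 0.80 ± 0.14 (limma adjusted p 0.0452), and its other probe gave 1.36. Prxl2b, also known as prostamide and prostaglandin F synthase, read 8.63, 8.73 and 8.49 on Ta and 8.16, 8.11 and 8.11 on Ti and rose by 0.49 ± 0.09 (adjusted p 0.0460). The thromboxane synthase Tbxas1, named after its values were seen, read 10.99, 10.34 and 9.88 on Ta and 11.64, 11.27 and 11.81 on Ti, a difference of -1.17 ± 0.30 with an adjusted p of 0.0707. Ptges2 and Ptges3, the other prostaglandin E synthases, differed by -0.04 and 0.12.

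None (0) of the 4 genes of prostaglandin breakdown and transport passed the limma test, and 1 had an unadjusted p under 0.05. The largest differences were 0.51 ± 0.14 for Abcc4, an efflux pump for prostaglandins (adjusted p 0.0744), and 0.23 ± 0.10 for Ptgr1, a prostaglandin reductase (adjusted p 0.2). None (0) of the 7 other tested prostanoid receptors passed it either, and 1 had an unadjusted p under 0.05. That was Ptger3, another prostaglandin E2 receptor, named after its values were seen, which read 3.92, 5.04 and 5.78 on Ta and 3.98, 2.78 and 3.84 on Ti. The groups overlapped, 2 of the 3 Ti arrays were well above background, and the difference was 1.38 ± 0.54 (adjusted p 0.149), or 1.11 with values below the lowest signal well above background raised to it. The largest differences among those measured on every array were -0.39 ± 0.33 for Ptger1 and 0.36 ± 0.18 for Ptgfr, the prostaglandin F receptor. The other Ptger1 probe gave 0.36, so the direction of Ptger1 depended on the probe.

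Arachidonic acid is also the substrate of the leukotriene route, where 4 of 11 listed genes were tested and 1 fell. Alox5, the 5-lipoxygenase that starts leukotriene synthesis, read 5.49, 3.99 and 4.36 on Ta and 7.44, 6.82 and 7.36 on Ti. Every Ta array was below every Ti array. Alox5 fell by 2.59 on the log2 scale (SE 0.40, limma adjusted p 0.0419). All 4 had an unadjusted p under 0.05, against 30.0% of all genes. The other 3, named after their values were seen, missed the test. They were Cysltr1 (-3.79, adjusted p 0.0992), Alox5ap (-1.47, adjusted p 0.109) and, with the opposite sign, Lta4h (0.24, adjusted p 0.144). Cysltr1 was well above background on 2 of the 3 Ta arrays. Among 14 genes known to respond to cyclic AMP, the messenger of Ptger2 and Ptger4, 2 were higher past the test and 12 missed it, with a median of 0.09. At an unadjusted p under 0.05 there were 8 of the 14. The groups did not overlap for 4 genes higher and 3 lower on Ta, against 19.5% and 16.4% of all genes. Ereg, which encodes the growth factor epiregulin, read 8.65, 9.47 and 9.40 on Ta and 7.73, 7.90 and 7.95 on Ti and rose by 1.31 ± 0.23 (adjusted p 0.0452). Sik1, a salt-inducible kinase, rose by 0.49 ± 0.09 (adjusted p 0.0452), and its other probe gave 0.67. Nr4a1 and Nr4a3, orphan nuclear receptors named after their values were seen, had differences of -1.03 ± 0.23 (adjusted p 0.0583) and -1.19 ± 0.29 (adjusted p 0.0682), and the other Nr4a3 probe gave -1.54.

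**Figure D4:**
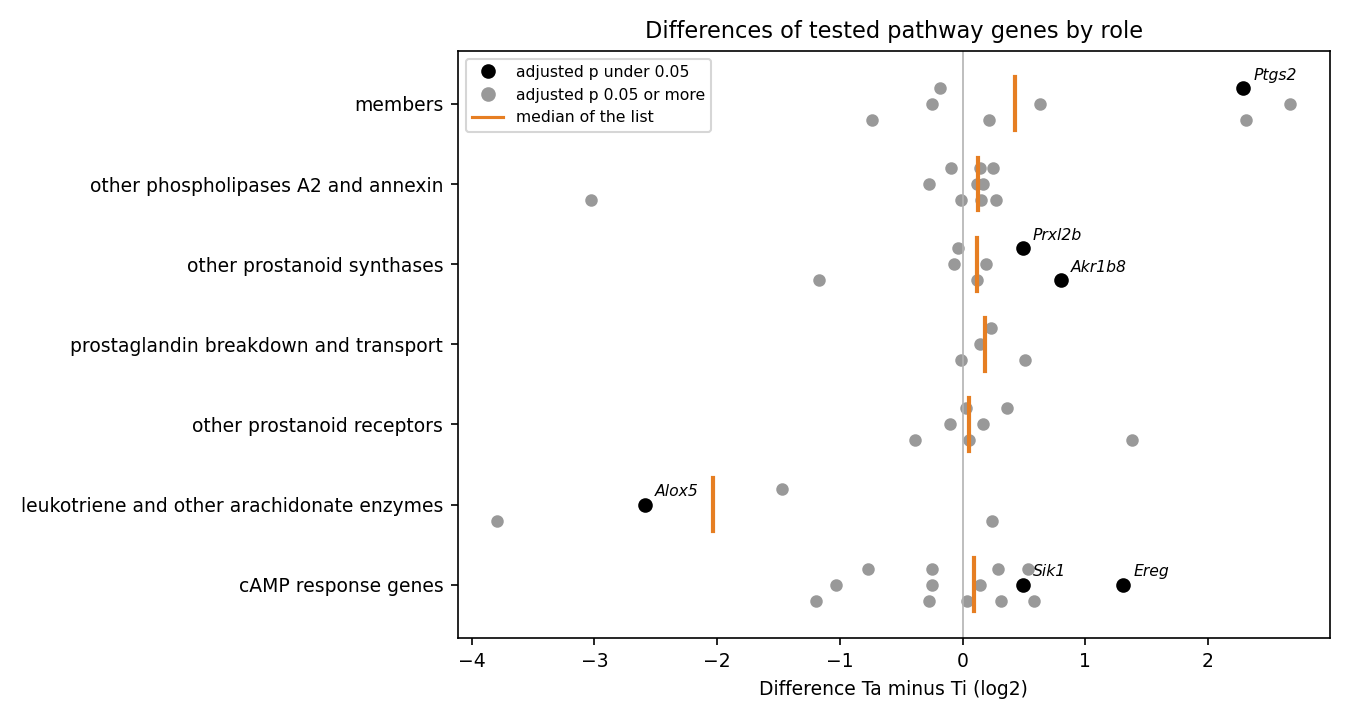
Difference Ta minus Ti on the log2 scale (x axis) of every tested gene of the members and of the 6 other pathway lists (y axis). Black points have an adjusted p under 0.05 and are named, and orange bars are list medians, from 0.42 for the members to -2.03 for the 4 leukotriene genes.

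Markers of the cell types that marrow cultures can hold were summed as linear signal on each array. The labelled stromal identity was checked with 14 markers, of which 13 were tested and Lepr was on no array well above background. The summed stromal signal was 289450 to 311504 on Ta and 294116 to 296893 on Ti. The brightest, the collagen genes Col1a1 and Col3a1, differed by -0.07 and -0.68. Thy1 rose by 0.67 and Cxcl12 by 1.06 (limma adjusted p 0.0437 and 0.0452). Markers of macrophages, mast cells and neutrophils were detected as well.

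Of 16 macrophage markers 15 were tested, none (0) passed the limma test, 8 had an unadjusted p under 0.05 (30.0% of all genes did), and the median difference was -0.49. Their summed signal was 69219 to 175421 on Ta and 189991 to 245329 on Ti. It was highest among the Ta arrays on replicate 1 (175421) and lowest on replicate 3 (69219). Hpgd showed this order too. So did the stromal markers Pdgfra and Nt5e, unlike the other tested stromal markers, so the order is not particular to macrophage markers. The brightest, Lyz2 and Tyrobp, differed by -2.38 and -0.48. Their other probes gave -2.85 and -0.51 for Lyz2, and 0.30, the opposite sign, for Tyrobp. Lyz2 was the brightest on every Ti array, so the gap between the summed signals rests largely on this 1 gene. The largest differences, named after their values were seen, were those of C1qa (-2.79), C1qb (-2.83) and C1qc (-3.08). Their limma adjusted p-values were 0.0788, 0.0695 and 0.07. Of the 15 markers, 2 had a difference above zero. Every Ta array lay below every Ti array for 6 of the 15 markers, against 16.4% of all genes. The reverse held for 1, Cd14 (0.34), against 19.5% of all genes. Marco was on no array well above background. The part of the macrophage markers in the values of Hpgd, Alox5, Tbxas1 and Pla2g2d was not tested.

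The mast cell list had 9 tested genes of 12, of which 5 fell: Kit (-2.56), Mcpt8 (-2.16, with -0.41 at its other probe), Cpa3, Mcpt1l1 and Cma1. On Ta, the last 2 were on no array well above background, so for them the fold is a lower bound, against the lowest signal well above background on each array. Mcpt1l1 was at least 4.15-fold lower and Cma1 at least 3.49-fold lower. Both passed the filter on dim probes only through the Ti arrays, where they were high. Their limma adjusted p-values (0.0397 and 0.0351) came from the signals as measured and not from these bounds. These 2 calls are therefore no support for a fall of the list. The summed mast cell signal was 872 to 946 on Ta and 1408 to 2361 on Ti. Mcpt8 was the brightest on every Ti array, so the gap between these sums rests largely on its brighter probe. Hdc, the other of the 2 brightest, differed by 0.73. Cpa3 was well above background on 1 of the 3 Ta arrays, and its difference was -1.62 with the Ta values below the lowest signal well above background raised to it (-1.93 as measured). The neutrophil list had 4 tested genes of 10, of which S100a8 rose by 2.95 (adjusted p 0.0447) and Camp by 1.68 (adjusted p 0.0452). Of the others, Mpo differed by 1.66 (adjusted p 0.0516), and Csf3r, with the opposite sign, by -0.88 (adjusted p 0.232). The summed neutrophil signal was 303 to 629 on Ta and 121 to 180 on Ti. It was lowest among the Ta arrays on replicate 1 and highest among the Ti arrays on replicate 2. Ptgs2 and Ptges had the same lowest Ta and highest Ti array. So did the stromal markers Cxcl12, Thy1, Vcam1 and Prrx1, while the other tested stromal markers did not. This order is thus not particular to neutrophil markers, Ptgs2 or Ptges. S100a9, Elane, Ngp and Ltf were on no array well above background. Of 9 endothelial markers 7 were tested, none (0) passed and 2 had an unadjusted p under 0.05. Their sums, 1726 to 2063 on Ta and 1765 to 2111 on Ti, mostly follow Vwf. Vwf and Pecam1 were the brightest and differed by 0.06 and -0.96. The median difference was -0.52, with 1 of the 7 above zero. Every Ta array lay below every Ti array for 2 of them, against 16.4% of all genes. Erg, named after its values were seen, was 1 of these, at -3.07 (limma adjusted p 0.0707). It was well above background on 2 of the 3 Ta arrays. The part of these markers in the Ptgs2, Ptges and Pla2g2a values was not tested.

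**Figure D5:**
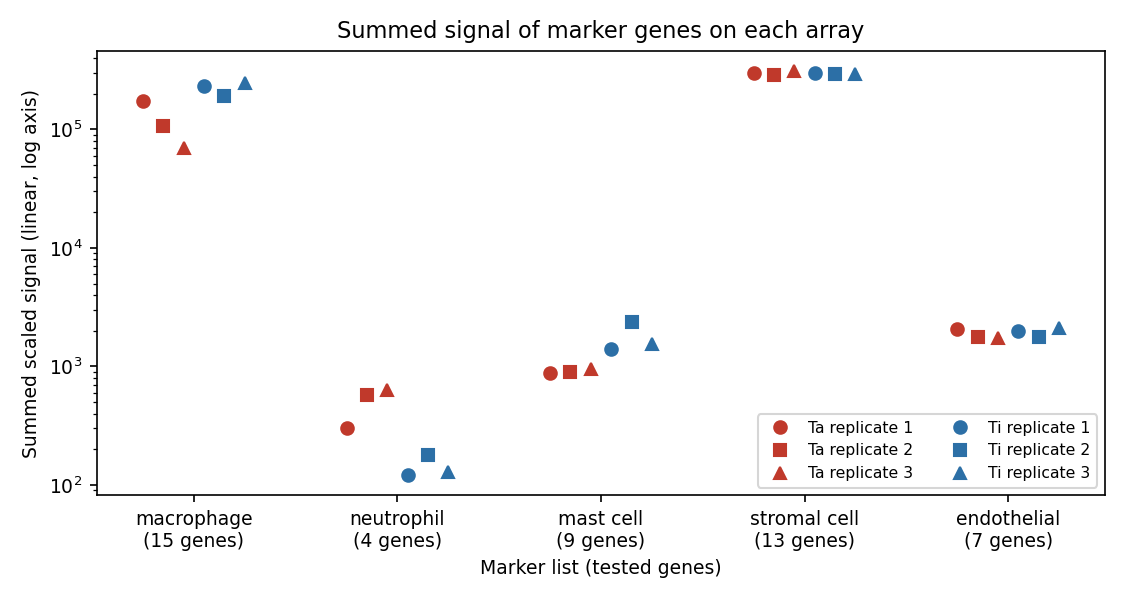
Summed scaled linear signal (y axis, log scale) of the tested genes of 5 marker lists (x axis) on the 3 Ta arrays (red) and 3 Ti arrays (blue), with 1 symbol shape per replicate. The macrophage and mast cell sums are lower on all Ta arrays than on all Ti arrays. The neutrophil sums are higher (303 to 629 against 121 to 180), and the stromal and endothelial sums overlap. Linear sums follow their brightest genes. On the Ti arrays these were Lyz2 for macrophages and Mcpt8 for mast cells, and Vwf led the endothelial sums on all arrays.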

How the data were processed

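Background subtraction and detrending of each array were done with Agilent Feature Extraction 12.0, per the file headers, and the authors deposited the processed spot intensity on a linear scale, not scaled between arrays. The submitters' processing notes also name limma, without a version. The deposited series table equalled the processed signal in 100% of values. The log2 signal was reduced by each array's 75th percentile over 58717 non-control spots, and the mean percentile was added back. Outlier-flagged spots were dropped, spots of a probe averaged (a probe counted as well above background on an array when most of its spots were), probes kept when well above background on at least 3 arrays, and a gene represented by its brightest probe. Names came through RefSeq (GRCr8) for 31230 of 45598 probes. Ta and Ti were compared with limma 3.58.1 (lmFit, eBayes; R 4.3.3), two-sided, and p-values were adjusted by the Benjamini-Hochberg method over 19570 genes. The fit was tested on simulated data.

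The members and gene lists were chosen with earlier results of these data known. Named genes were all members, the other pathway genes past the test (up to 4 per list, or the 2 largest differences where none passed), the 3 genes nearest to a member past the test, the 2 brightest markers per list and markers past the test. Arrays of the same replicate number had correlations of deviations of 0.064, 0.132 and -0.177, which cannot show whether the cultures were paired. Alternatives were 3 other scalings, normexp (offset 50), other filters and probe rules, blocks for replicate number and slide row, other variance settings, and each array left out. The Pla2g2a spots taken singly were added after the data were seen.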

Additional observations from a re-analysis of the deposited data

How the results depend on the processing

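No difference of a tested member changed sign under any of the 21 alternatives run. The Ptgs2 difference ranged from 2.04 to 2.70 and the call was lost under 7 of them. Some of the 21, such as the replicate block and the trend and robust setting, cannot change a difference, only its p-value. The single Pla2g2a spots can change the difference of that gene alone. The unchanged signs thus rest on fewer than 21 alternatives. Of the genes tested, limma called 812, against 10159 with array weights, 2585 with normexp, 2087 with eBayes set to trend and robust, 8 with the replicate block (5094 at an unadjusted p under 0.05), 0 with slide row blocked (3829 unadjusted) and 0 with dim probes kept (5814 unadjusted). Members called were 1, against 8 with array weights, 4 with normexp, 3 with the filter on all 6 arrays, 3 with eBayes set to trend and robust, 2 with the second Pla2g2a spot alone, 0 with dim probes kept (4 unadjusted), 0 with the replicate block (5 unadjusted) and 0 with slide row blocked (3 unadjusted). Other pathway genes called were 5, against 29 with array weights, 13 with normexp, 10 with eBayes set to trend and robust, 3 with median scaling, 0 with dim probes kept (18 unadjusted), 0 with the replicate block (18 unadjusted) and 0 with slide row blocked (12 unadjusted). Leaving out each array in turn gave 0 to 3209 genes, 0 to 4 members and 0 to 17 other pathway genes. All 3 counts were 0 when Ta replicate 2 or 3 or Ti replicate 1 or 3 was left out (3811 to 4465 genes unadjusted), and highest without Ta replicate 1. The cause of these changes was not tested. With array weights, Ta replicate 2 had a weight of 7.354 and Ti replicate 2 of 0.319. The slide row block rests on Ti replicate 1 alone, whose spread was taken to equal that of the other arrays. The replicate number, which 3 of the 6 arrays matched best, is not known to pair cultures. Median scaling gave 416 of 778 called genes higher, against 522 of 812. Slide or scan as a block and the deposited series table gave no separate fit, since each array shared 1 slide and scan and the tables held the same values.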
